A study of Mus musculus with 2 samples.

Results

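Genes that are used to define luminal progenitors of the mouse mammary gland were followed here in single cell RNA sequencing data, 6 of the 32285 genes measured. They were chosen by name: the transcription factors Elf5 and Ehf, the surface proteins Kit, Cd14 and Plet1, and the enzyme Aldh1a3. All 6 were detected in both libraries. The cells came from mammary glands of mice labelled 9 to 10 weeks old and female per the study's methods, either control mice (Ctrl) or mice that received clodronate liposomes (CL), vesicles that carry a drug lethal to the phagocytes that take them up. The liposomes were injected into the abdomen several times. The glands were digested, cells positive for CD31 or TER119 were removed by sorting, and the sorted cells had been stored and were thawed before the libraries were made. For the sequenced mice, what the controls received, the strain, and how many mice went into a library were not given in the sources used here. In another experiment of the study with clodronate liposomes, the mice were C57/B6 and the controls received saline. There was 1 library per group, so no difference between Ctrl and CL has a replicate check, treatment and library cannot be told apart, and no test between them was made.

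The mammary duct has an outer basal layer and an inner luminal layer. The luminal layer holds hormone-responsive cells, which carry receptors for oestrogen and progesterone, and secretory-lineage cells, which include the progenitors that give rise to milk-producing alveoli. Elf5 encodes an ETS transcription factor required for alveolar development, which acts downstream of prolactin. Ehf encodes an ETS factor of epithelia. Kit encodes the receptor tyrosine kinase for stem cell factor, and Cd14 the co-receptor that hands bacterial lipopolysaccharide to TLR4, best known from monocytes and macrophages. Plet1 encodes a surface protein held by a lipid anchor, and Aldh1a3 an aldehyde dehydrogenase that makes retinoic acid and gives progenitors activity in the dye assay used to sort them.

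Elf5 lies on chr2:103411688-103450989 on the plus strand of GRCm38 and Ehf on chr2:103263433-103303278 on the minus strand, with 108409 bases and no protein-coding gene between them. Kit lies on chr5:75574916-75656722 (plus strand), Plet1 on chr9:50494525-50505482 (plus), Aldh1a3 on chr7:66390890-66427517 (minus) and Cd14 on chr18:36725067-36726798 (minus). Plet1 lies wholly within its antisense gene Plet1os, at chr9:50488795-50507823 on the minus strand. Whether counting used strand is not given in the sources used here, so reads of this pair could have been exchanged. Plet1os had 322 unique molecular identifiers (UMIs, each standing for 1 captured transcript molecule) in the secretory-lineage cells of Ctrl, against 229489 for Plet1.

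Because the lineage genes include ETS factors, promoters were read for the GGAA core that ETS factors recognise. The windows run from 250 bases before to 50 bases after each annotated start, and RefSeq (GRCm38.p6) gave them for Elf5, Kit and Plet1 (a second, overlapping Kit window is not shown). Capitals mark GGAA or its reverse complement TTCC.

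Elf5, chr2:103411848-103412147, plus strand: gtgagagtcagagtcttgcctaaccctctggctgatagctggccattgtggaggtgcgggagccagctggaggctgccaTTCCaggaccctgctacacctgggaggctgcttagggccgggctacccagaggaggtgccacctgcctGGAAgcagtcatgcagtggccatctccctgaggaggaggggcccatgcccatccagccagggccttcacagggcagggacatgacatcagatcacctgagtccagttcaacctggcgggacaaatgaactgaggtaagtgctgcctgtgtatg

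Elf5, chr2:103423818-103424117, plus strand: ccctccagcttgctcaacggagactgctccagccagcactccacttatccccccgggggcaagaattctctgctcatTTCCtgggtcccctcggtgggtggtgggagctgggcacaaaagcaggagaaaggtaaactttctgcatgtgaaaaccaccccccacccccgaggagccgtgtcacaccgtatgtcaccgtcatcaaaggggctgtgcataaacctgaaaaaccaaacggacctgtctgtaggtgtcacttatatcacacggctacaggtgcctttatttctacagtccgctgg

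Kit, chr5:75574737-75575036, plus strand: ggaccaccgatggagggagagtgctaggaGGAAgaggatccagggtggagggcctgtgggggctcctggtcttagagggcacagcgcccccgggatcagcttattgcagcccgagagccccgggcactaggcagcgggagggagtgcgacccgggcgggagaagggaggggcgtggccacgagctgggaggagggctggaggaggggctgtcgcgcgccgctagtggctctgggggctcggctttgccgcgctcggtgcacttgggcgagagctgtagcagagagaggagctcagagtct

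Plet1, chr9:50494275-50494574, plus strand: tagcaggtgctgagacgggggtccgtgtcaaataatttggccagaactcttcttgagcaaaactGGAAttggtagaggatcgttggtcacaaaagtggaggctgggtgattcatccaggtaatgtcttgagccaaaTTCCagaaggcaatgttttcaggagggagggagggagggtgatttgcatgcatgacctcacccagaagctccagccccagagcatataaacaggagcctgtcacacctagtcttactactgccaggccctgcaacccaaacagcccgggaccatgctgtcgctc

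The first Elf5 window held 2 matches, the second 1, Kit 1 and Plet1 2. Of 32851 promoters of this length, 95.98% held at least 1 GGAA on either strand, with a median of 3, so the members' windows held no more than the usual number. The longer form CCGGAA, which contains GGAA, was in 14.9% of promoters, and TTCNNNGAA, the spaced palindrome bound by STAT factors, was in 8.30%. Neither set of letters was in the 4 windows.

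Ctrl held 118743318 UMIs and CL 155765480. After filtering, 5937 Ctrl cells with a median of 11351 UMIs and 8826 CL cells with a median of 10337 UMIs were kept. The class names below were rebuilt from marker genes that do not include the 6 members, and they may differ from the study's. Secretory-lineage luminal-like cells numbered 2661 in Ctrl (44.8% of kept cells) and 3916 in CL (44.4%). Hormone-responsive luminal-like cells numbered 2124 and 2622. The cells named macrophage-like, the type that the treatment is meant to remove, were 62 in Ctrl (1.04%) and 273 in CL (3.09%), and they formed 2 clusters, one a smaller and one a larger share of CL than of Ctrl. A cluster led by MHC class II and C1q genes, with 12 of 12 macrophage markers at 2 times the reference level or more, held 41 Ctrl and 43 CL cells, 0.691% and 0.487% of kept cells. A cluster led by Lyz2 and S100a8, with 9 of 12 and neutrophil as the class with the next score, held 21 and 230 cells, 0.354% and 2.61%. The higher number in CL thus rested on the second cluster, whose leading genes name macrophages less clearly. Basal-like cells were 6.87% of Ctrl and 5.03% of CL. The proportion in which sorted cells were loaded was not stated, and 22 droplet barcodes were shared by the candidate cells of both libraries.

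Levels are given as CPM, the standard depth-scaled count (UMIs of a gene over all UMIs of the cells in a class), with exact 95% Poisson intervals. Those intervals, like all others here, cover counting error only. Droplets with 100 to 300 UMIs were measured as a record of free RNA. Levels of different genes are not set against each other.

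All 6 genes had a higher level in secretory-lineage than in hormone-responsive cells, in both libraries. At a size of at least 1 on the log2 scale this held for 6 of 6 in Ctrl, where 14.9% of all 12963 genes compared were that much higher, and for 6 of 6 in CL, where 14.1% of 13198 were. The median log2 ratio of the 6 was 4.23 in Ctrl and 3.95 in CL, against -0.18 and -0.16 over all genes compared. The genes are known progenitor markers, so this describes how the rebuilt classes hold them. The size of these ratios depended on which cells were kept, by more than the counting intervals given with them. With a minimum of 200 genes per cell in place of 500, the log2 ratio was 3.26 in Ctrl and 2.74 in CL for Aldh1a3 (5.29 and 5.15 as given below), 3.17 and 2.71 for Kit, 3.19 and 2.66 for Plet1, 2.902 and 2.485 for Cd14, 2.06 and 2.46 for Elf5, and 1.36 and 0.97 for Ehf.

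**Figure D1:**
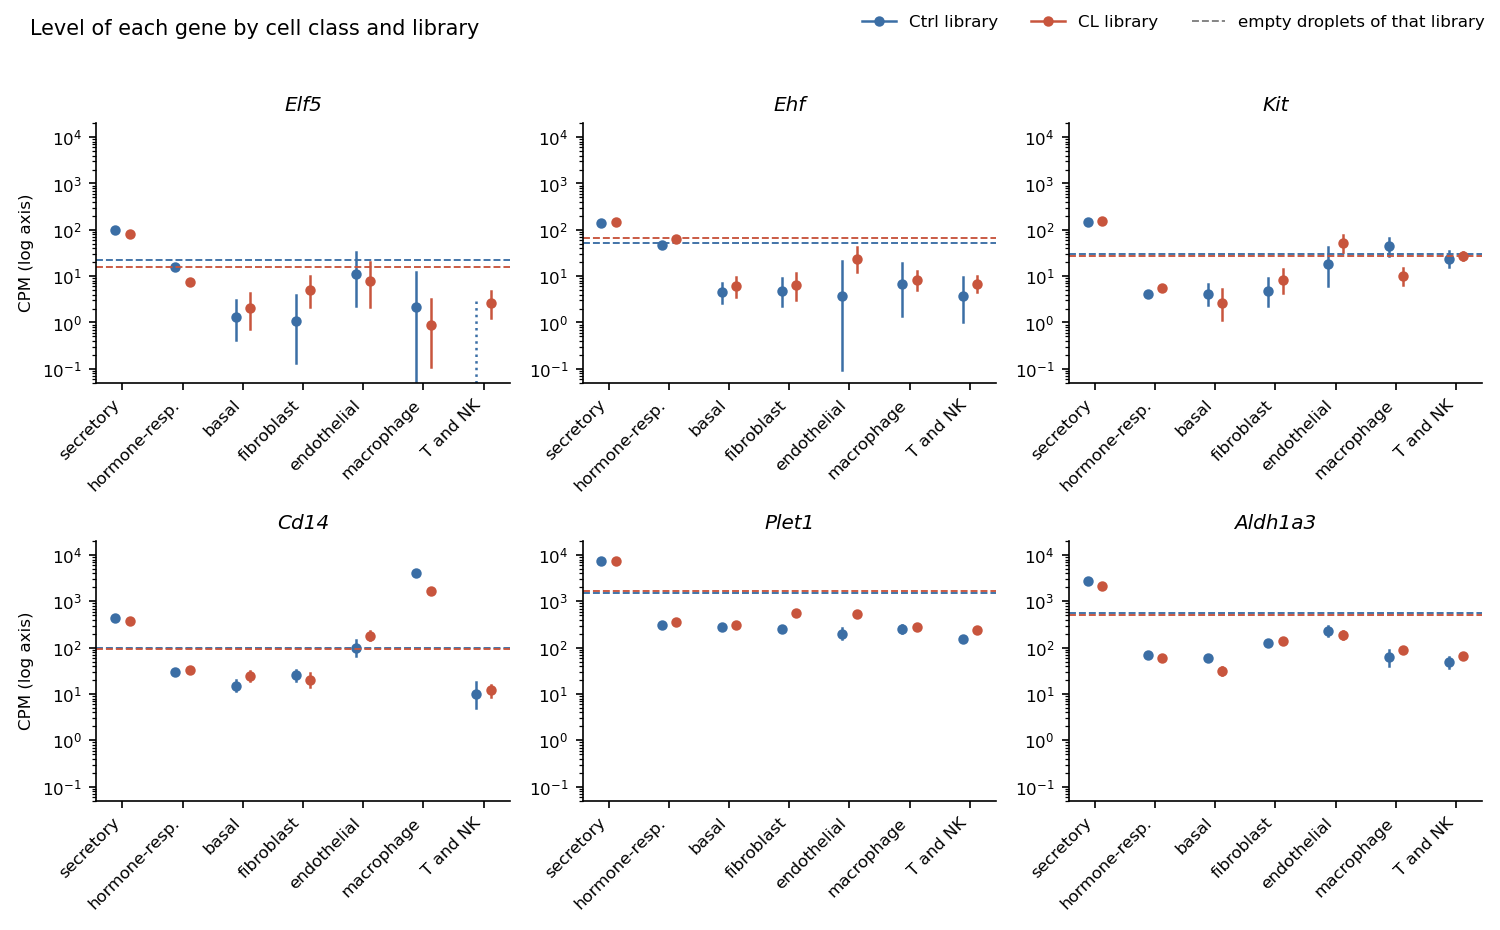
CPM of each of the 6 genes on a log axis in 7 cell classes, Ctrl in blue and CL in red, with exact 95% Poisson intervals; dashed lines give the level in droplets of 100 to 300 UMIs, and a dotted line without a point marks a class with 0 UMIs. Elf5, Ehf, Kit, Plet1 and Aldh1a3 were highest in secretory-lineage cells of both libraries, and Cd14 in macrophage-like cells.

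Elf5, the alveolar regulator, stood at 98.6 CPM [95.1 to 102.2] in the secretory-lineage cells of Ctrl and at 80.8 CPM [78.2 to 83.5] in those of CL. In hormone-responsive cells it stood at 16.1 CPM [14.9 to 17.3] in Ctrl and 7.53 CPM [6.78 to 8.33] in CL. The log2 ratio between the classes was 2.62 [2.50 to 2.74] in Ctrl and 3.43 in CL. Which library had the larger ratio depended on the hormone-responsive clusters counted, since without those led by Gpx3 and Aoc1 and by Fxyd2 and Crym, described further on, it was 4.06 in Ctrl and 3.74 in CL. Basal-like cells held 5 Elf5 UMIs in Ctrl and 6 in CL, and T and NK-like cells of Ctrl held 0. Of all Elf5 UMIs in kept cells, 77.0% in Ctrl and 81.1% in CL lay in secretory-lineage cells.

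Ehf was the member least restricted to secretory-lineage cells among the luminal classes. It stood at 140.4 CPM [136.3 to 144.7] there in Ctrl and 146.7 CPM [143.1 to 150.3] in CL. In hormone-responsive cells it stood at 46.7 CPM [44.7 to 48.8] and 63.5 CPM [61.3 to 65.8]. The log2 ratio between the classes was 1.59 [1.51 to 1.67] in Ctrl and 1.21 [1.15 to 1.27] in CL, the lowest of the 6 in each library. Outside the luminal classes it was low, with basal-like cells at 4.48 CPM (Ctrl) and 6.01 CPM (CL).

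Kit, the stem cell factor receptor, stood at 146.5 CPM [142.3 to 150.9] in secretory-lineage cells of Ctrl and 151.9 CPM [148.3 to 155.6] in CL. In hormone-responsive cells it stood at 4.19 CPM [3.61 to 4.84] and 5.58 CPM [4.94 to 6.28]. That is a log2 ratio of 5.13 in Ctrl and 4.77 in CL. Kit also marks mast cells and some lymphocytes. T and NK-like cells held 23.98 CPM in Ctrl and 27.2 CPM in CL, near the 29.4 and 27.3 CPM of droplets. Per UMI of Aldh1a3 they held 0.491 Kit UMIs [0.295 to 0.799] in Ctrl and 0.406 [0.320 to 0.512] in CL. Droplets held 0.0528 and 0.0547. The counts were 26 Kit UMIs in 13 of 213 T and NK-like cells of Ctrl, and 104 in 57 of 734 of CL. The part of free RNA in them was not tested. The Kit level of T and NK-like cells was uneven in CL, from 14.9 CPM [10.2 to 20.9] in cluster 11 to 50.8 CPM [38.8 to 65.4] in cluster 15. The 70 Ctrl cells of cluster 15 held 1 Kit UMI. The 44.0 CPM in macrophage-like cells of Ctrl came from 20 UMIs in 2 cells, and the cell with most of them had UMIs of 0 of 6 mast cell markers.

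Plet1 stood at 7449.7 CPM [7419 to 7480.3] in secretory-lineage cells of Ctrl and 7486 CPM [7460.1 to 7511] in CL. It was the only member among the 50 most abundant genes of that class. Hormone-responsive cells held 313.4 CPM [308.2 to 318.7] and 356.9 CPM [351.6 to 362.2], a log2 ratio between the classes of 4.57 in Ctrl and 4.39 in CL. Droplets held 1529.6 CPM in Ctrl and 1677 CPM in CL, so the levels of every named class other than the secretory-lineage one were under that of the free RNA.

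Aldh1a3, the retinoic acid enzyme, stood at 2737 CPM [2718 to 2755] in secretory-lineage cells of Ctrl and 2180.4 CPM [2167 to 2194] in CL. In hormone-responsive cells the values were 69.9 CPM [67.5 to 72.4] and 61.2 CPM [59.1 to 63.4]. The log2 ratio between the classes was 5.29 [5.24 to 5.34] in Ctrl and 5.15 [5.10 to 5.21] in CL, the highest of the 6 in each library. Secretory-lineage cells carried 92.6% of the Aldh1a3 UMIs of kept Ctrl cells and 86.8% of those of CL.

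Cd14 was the exception to the order of classes, as its level was highest in macrophage-like cells. Those held 4197 CPM [4011 to 4390] in Ctrl and 1640.1 CPM [1588 to 1694] in CL. Secretory-lineage cells came next with 438.3 CPM [431.0 to 446] and 380.0 CPM [374.3 to 385.8], a log2 difference from macrophage-like cells of -3.26 in Ctrl and -2.11 in CL. Hormone-responsive cells held 29.8 CPM [28.2 to 31.4] and 33.2 CPM [31.7 to 34.9]. Since secretory-lineage cells were many, they carried 77.1% of the Cd14 UMIs in Ctrl and 69.4% in CL, and macrophage-like cells 10.9% and 15.5%. The 12 macrophage markers used for naming summed to 64.7 CPM in secretory-lineage cells of Ctrl and 54.2 CPM in CL, with 0 and 1 of them undetected, against 13254 and 11516 CPM in macrophage-like cells. Droplets of Ctrl held a sum of 85.2 CPM, and those of CL one of 181.9 CPM. The part of macrophage RNA in the Cd14 level of secretory-lineage cells was not tested.

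Cd14 was lower in macrophage-like cells of CL, at a log2 ratio of -1.36 [-1.44 to -1.28], and the cells that made up the class differed between the libraries. In the C1q cluster Cd14 stood at 5174 CPM in Ctrl and 4377 CPM in CL, a log2 ratio of -0.24 [-0.33 to -0.15]. In the Lyz2 and S100a8 cluster it stood at 1487 CPM over 21 cells and 848.6 CPM over 230 cells, a ratio of -0.81 [-1.03 to -0.58]. The C1q cluster carried 90.6% of the Cd14 UMIs of the class in Ctrl and 59.9% in CL.

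In both libraries the same class was first for each gene. Elf5, Ehf, Kit, Plet1 and Aldh1a3 were highest in secretory-lineage cells, and the unnamed cells were next. These unnamed cells were mainly a cluster of 126 Ctrl and 459 CL cells with markers of both luminal classes and a median of 26839 UMIs. That cluster held intermediate levels, with Elf5 at 52.6 CPM in Ctrl and 32.9 CPM in CL, and Aldh1a3 at 858.9 and 824.3 CPM. It was deeper than both luminal classes. Median UMIs in Ctrl and CL were 9694 and 9147.5 for secretory-lineage cells, and 20043 and 16946 for hormone-responsive cells. Whether some of its barcodes held more than a single cell was not tested. Further down, the counting intervals of neighbouring classes mostly overlapped for Elf5, and for Kit from the second place in Ctrl. Endothelial-like cells, 53 in Ctrl and 61 in CL, were present although the sort removed CD31-positive cells.

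Shares of cells with a UMI were compared after each cell was thinned to 2000 UMIs, leaving out 67 shallower secretory-lineage cells in Ctrl and 83 in CL. Aldh1a3 was detected in 85.8% [84.4 to 87.1, Clopper-Pearson] of secretory-lineage cells of Ctrl and 83.0% [81.8 to 84.2] of those of CL. In hormone-responsive cells of Ctrl it was detected in 6.80%, beside 6.77% of basal-like and 6.70% of T and NK-like cells. The part of free RNA in these shares was not tested. The level of Aldh1a3 was uneven among the hormone-responsive clusters of Ctrl, from 31.5 CPM [28.5 to 34.7] to 176.9 CPM [165.8 to 188.5]. Without thinning, 95.6% and 94.8% of secretory-lineage cells held a UMI of it.

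Plet1 was in 98.96% of secretory-lineage cells in Ctrl and 99.06% in CL. In hormone-responsive cells it was in 35.6% [33.5 to 37.7] and 38.3% [36.5 to 40.2], above the 25.1% [20.9 to 29.6] and 28.3% [23.9 to 32.9] of basal-like cells. Cd14 was in 47.3% and 44.2% of secretory-lineage cells, 5.21% and 4.53% of hormone-responsive cells, and 85.7% and 60.2% of macrophage-like cells. The C1q cluster made up 66.13% of all macrophage-like cells in Ctrl and 15.75% in CL. T and NK-like cells, as a background, had Cd14 in 3.61% in Ctrl and 1.90% in CL.

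The transcription factors and Kit were seen in fewer cells at this depth. Elf5 was in 18.3% [16.8 to 19.9] of secretory-lineage cells of Ctrl and 14.0% [12.9 to 15.2] of those of CL. In hormone-responsive cells its share was 2.75% [2.09 to 3.55] and 1.28% [0.881 to 1.79], and in basal-like cells it was found in 1 of 399 (Ctrl), with an upper bound of 1.39%, and in 0 of 400 (CL). The latter allows a share of up to 0.75% with a UMI at this depth by the limit of 3 counts, or 0.918% by the Clopper-Pearson bound, while without thinning 6 of 444 CL cells held one. Kit was in 22.8% and 24.4% of secretory-lineage cells and in 0.82% and 0.775% of hormone-responsive cells, close to the 0.501% and 0.50% of basal-like cells. Ehf was in 21.9% and 23.1% of secretory-lineage cells. It was in 8.63% [7.46 to 9.92] of hormone-responsive cells in Ctrl and 11.5% [10.3 to 12.8] in CL, against 0.752% and 0.25% of basal-like cells. Unthinned, Elf5 reached 52.8% and 45.4% of secretory-lineage cells, Kit 62.1% and 61.8%, and Ehf 59.6% and 61.1%.

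Over all hormone-responsive cells the level of every member was under that of droplets, but not in each of their clusters. Elf5 stood at 16.1 CPM there and at 22.6 CPM in droplets of Ctrl, and at 7.53 and 15.8 CPM in CL. Ehf in CL came closest to the droplets, with a log2 ratio of -0.06 [-0.18 to 0.06]. In cluster 14, led by Fxyd2 and Crym, Elf5 was above the droplets, at 42.6 CPM [37.2 to 48.4] in Ctrl and 42.7 CPM [33.9 to 53.1] in CL. Ehf was above them in cluster 3 of CL, at 76.5 CPM [73.2 to 79.9] against 66.2 CPM [61.5 to 71.2], and in the dividing cells of both libraries, at 73.6 CPM [64.4 to 83.7] in Ctrl and 84.7 CPM [73.7 to 96.9] in CL. In cluster 3 of Ctrl (57.6 CPM [51.7 to 64.1]) and cluster 14 of CL (67.0 CPM [55.8 to 79.7]) its interval took in the level of the droplets. Ratios to Aldh1a3 were also taken in each class and in droplets. In droplets of Ctrl there were 0.0943 Ehf UMIs [0.0864 to 0.103] per Aldh1a3 UMI, and in hormone-responsive cells 0.668 [0.631 to 0.706]. For Elf5 the values were 0.0405 in droplets and 0.230 [0.212 to 0.250] in hormone-responsive cells of Ctrl, and 0.0316 and 0.123 in CL. Plet1 had 2.75 in droplets and 4.48 in hormone-responsive cells of Ctrl. Kit differed little, with 0.0528 [0.0470 to 0.0590] in droplets and 0.0599 [0.0514 to 0.0695] in hormone-responsive cells of Ctrl. Cd14 had 0.173 [0.162 to 0.185] in droplets and 0.426 [0.399 to 0.455] in hormone-responsive cells of Ctrl. In Ctrl the intervals of hormone-responsive cells and droplets thus overlapped for Kit, and not for Elf5, Ehf, Cd14 and Plet1. In CL they overlapped for none of the 5, Kit included, at 0.0547 [0.0486 to 0.0614] and 0.0912 [0.0803 to 0.103]. The part of free RNA in these levels was not tested.

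Secretory-lineage cells often held several of the 6 genes at once, in a share that moved with the depth. At 2000 UMIs, 3 or more were detected in 66.8% [65.0 to 68.6] of 2594 secretory-lineage cells of Ctrl and in 63.6% [62.1 to 65.1] of 3833 of CL. The same was true of 1.64% and 1.70% of hormone-responsive cells, and of 0 of 399 basal-like Ctrl cells, with 2 of 400 for CL. The mean number of members detected was 2.95 and 2.88 in secretory-lineage cells, and 0.598 and 0.626 in hormone-responsive cells. At 1000 UMIs the shares were 39.8% and 36.6% of secretory-lineage cells. Without thinning, 95.1% and 93.4% of secretory-lineage cells held 3 or more, but so did 38.7% and 37.0% of hormone-responsive cells, whose median depth was 20043 UMIs in Ctrl against 9694 in secretory-lineage cells.

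**Figure D2:**
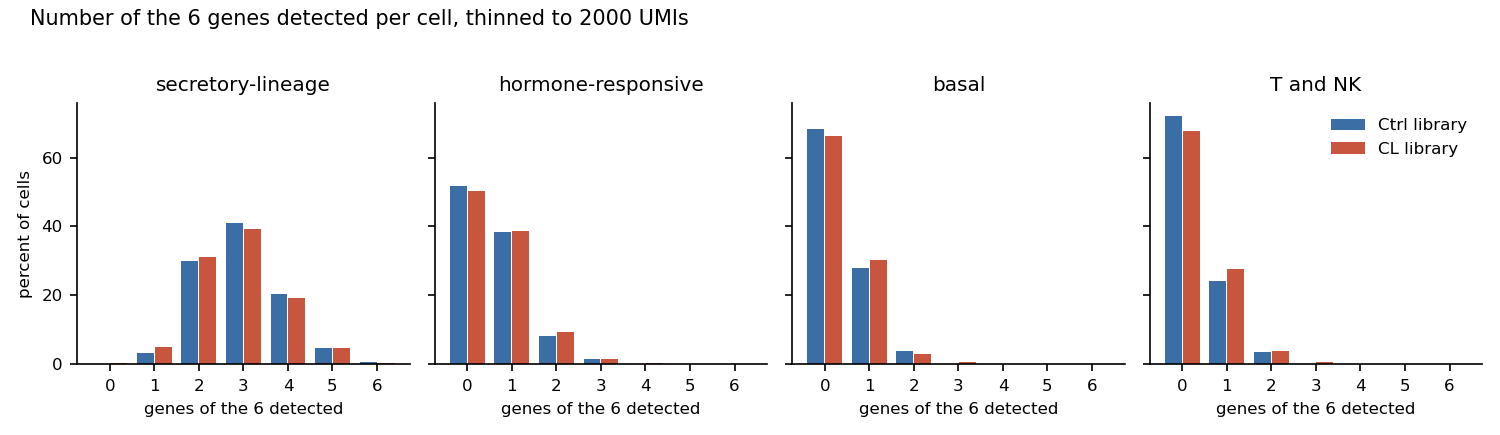
Percent of cells of 4 classes in which 0 to 6 of the genes were detected after thinning to 2000 UMIs, Ctrl in blue and CL in red. Secretory-lineage cells peaked at 3 genes, whereas most hormone-responsive, basal-like and T and NK-like cells held 0 or 1.

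Within secretory-lineage cells thinned to 5000 UMIs, pairs of members were detected together at between 0.985 and 1.16 times the product of their separate shares. Plet1 was detected in 99.88% of these cells in Ctrl and 99.92% in CL, and Aldh1a3 in 94.33% and 93.74%. Pairs with either gene were therefore held near that product in advance. Elf5 and Kit were found together in 17.8% of 2450 Ctrl cells, 1.14 times that product, and at 1.16 times in 3580 CL cells. Aldh1a3 and Plet1 counts had a Spearman correlation of 0.30 in Ctrl and 0.21 in CL across cells, whereas Kit and Plet1 had -0.18 and -0.17. These are descriptions of cells that share a library and are given without a test.

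**Figure D3:**
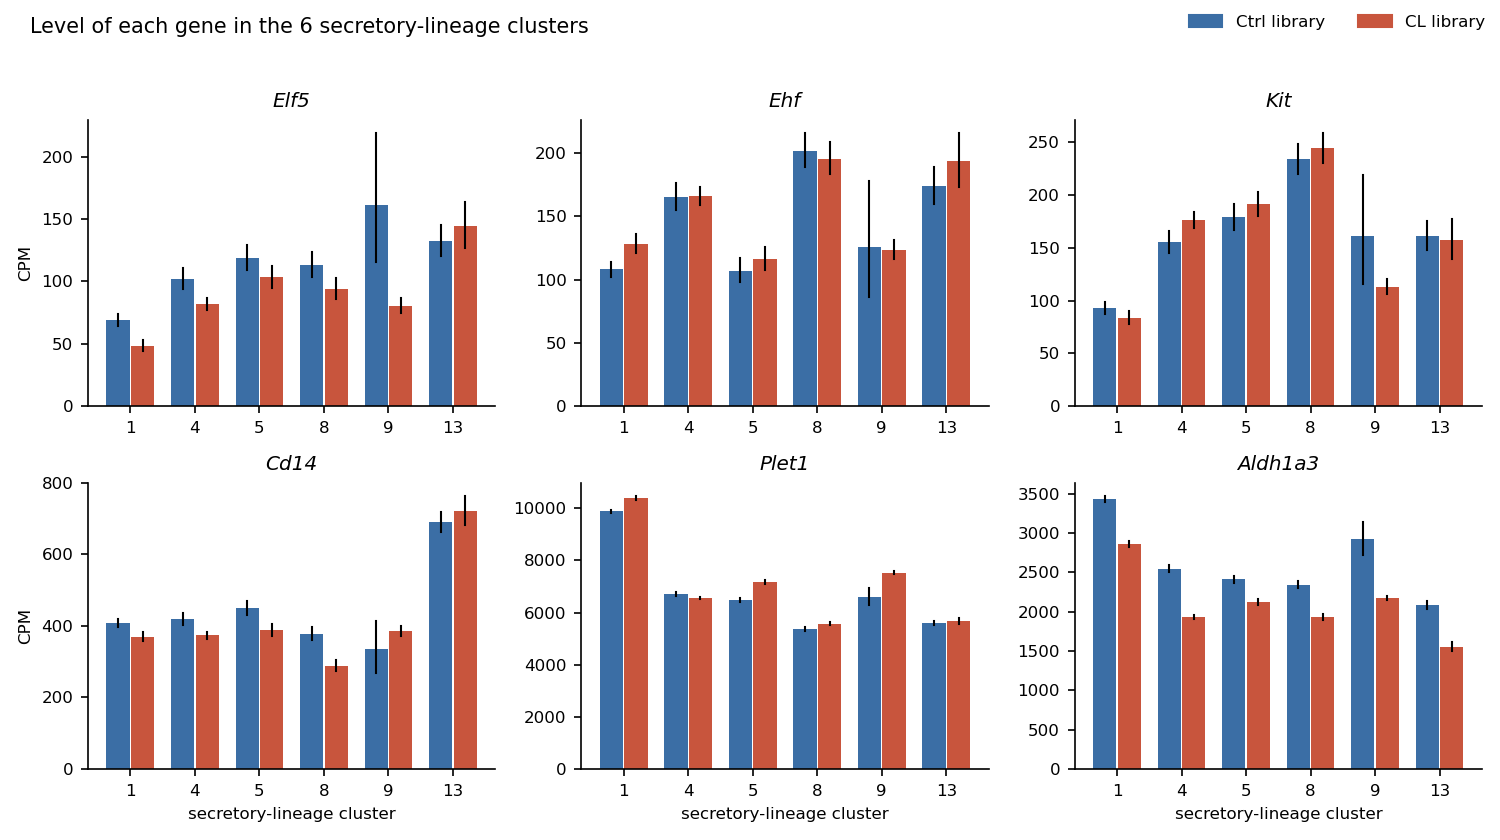
CPM of each gene in the 6 secretory-lineage clusters, Ctrl in blue and CL in red, with exact 95% Poisson intervals; axes start at 0 and differ between genes. Plet1 and Aldh1a3 were highest in cluster 1, where Kit and Elf5 were lowest, and Cd14 was highest in cluster 13.

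The 6 secretory-lineage clusters differed in which member was high. The clusters were built without the 6 genes among the variable genes, but from cells of the same libraries. Cluster 1, led by Csn3, Plet1, Aldh1a3 and Cck (951 Ctrl and 840 CL cells), had the highest Plet1, with 9888 CPM in Ctrl and 10392 CPM in CL, and the highest Aldh1a3, with 3432 and 2861 CPM. It also had the lowest Kit, with 93.0 and 83.8 CPM, and the lowest Elf5, with 68.8 and 48.2 CPM.

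Cluster 8, led by Wfdc18, Ltf, Fcgbp and S100g (360 and 427 cells), had another order. Kit was highest there, with 233.9 CPM [219.8 to 248.6] in Ctrl and 244.1 CPM [230.3 to 258.5] in CL. Ehf was also highest, with 201.7 and 195.3 CPM, and Plet1 lowest, with 5374 and 5571 CPM. Cluster 13 held Lalba, the milk protein alpha-lactalbumin, among its leading genes (295 and 157 cells). It had the highest Cd14, with 689.4 CPM [661.4 to 718.2] and 720.8 CPM [681.2 to 762.2], and the lowest Aldh1a3, with 2089 and 1556 CPM. Its Elf5 was 132.2 CPM [120.1 to 145.2] and 144.6 CPM [127.2 to 163.8], the highest in CL. Only the cluster with MHC class II genes among its leading genes, with just 17 cells in Ctrl, had a higher Elf5 in that library, at 161.4 CPM [115.8 to 219.0].

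From the lowest to the highest of the 6 clusters, the log2 ratio of CPM was 1.23 in Ctrl and 1.58 in CL for Elf5, 1.33 and 1.54 for Kit, and 1.04 and 1.32 for Cd14. It was under 1 for Ehf, Plet1 and Aldh1a3 in both libraries. In Ctrl the values of Elf5 and Cd14 rested on the MHC class II cluster with its 17 cells. Over the clusters with at least 50 cells of the library, a limit set after seeing the data, they were 0.94 and 0.87, under 1 as well, and only Kit stayed above it there. In the 38 secretory-lineage cells of Ctrl that fell in the dividing cluster, Elf5 stood at 135.3 CPM [111.3 to 163.0] against 97.6 CPM [94.1 to 101.2] in the others. Aldh1a3 stood at 975.4 CPM against 2785 CPM and Plet1 at 3397 against 7561 CPM in the same cells. In the 9 such cells of CL the order of Elf5 was the other way, at 53.8 CPM [29.4 to 90.2] against 81.0 CPM, while Aldh1a3 and Plet1 were again lower, at 368.7 against 2191 CPM and 2339 against 7517 CPM. Among hormone-responsive cells the order of Aldh1a3 was reversed. The 69 dividing cells of CL held 239.6 CPM [220.9 to 259.6] against 51.7 CPM [49.7 to 53.8] in the others, and 691.8 against 339.0 CPM of Plet1. In the 96 such cells of Ctrl Aldh1a3 stood at 84.4 CPM [74.5 to 95.1] against 68.8 CPM [66.3 to 71.4], and Plet1 at 313.0 against 313.4 CPM. These dividing cells were deeper than the others, with median UMIs of 35817 against 16789 in CL and 31087 against 19883 in Ctrl. Their cluster scored 3.21 for the hormone-responsive class and 1.27 for the secretory-lineage class. What the levels owe to depth or naming was not tested.

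Between the libraries, the members differed little in secretory-lineage cells. Of the 6, 0 differed by 0.5 or more on the log2 scale, a size at which 3.04% of 12405 genes were higher and 6.31% lower in CL. The median log2 ratio of CL over Ctrl was -0.10 for the 6 and -0.04 for all genes compared. Aldh1a3 was lower in CL by 0.33 on that scale, with a log2 ratio of -0.33 [-0.34 to -0.31], and Elf5 had -0.29 [-0.36 to -0.22]. Cd14 had -0.21 [-0.24 to -0.17]. Ehf had 0.06 [0.01 to 0.12], Kit 0.05 [-0.0026 to 0.11] and Plet1 0.0070 [-0.00075 to 0.015]. The intervals of Aldh1a3, Elf5 and Cd14 lay below 0, but they do not contain the spread between samples, which 1 library per group cannot show.

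**Figure D4:**
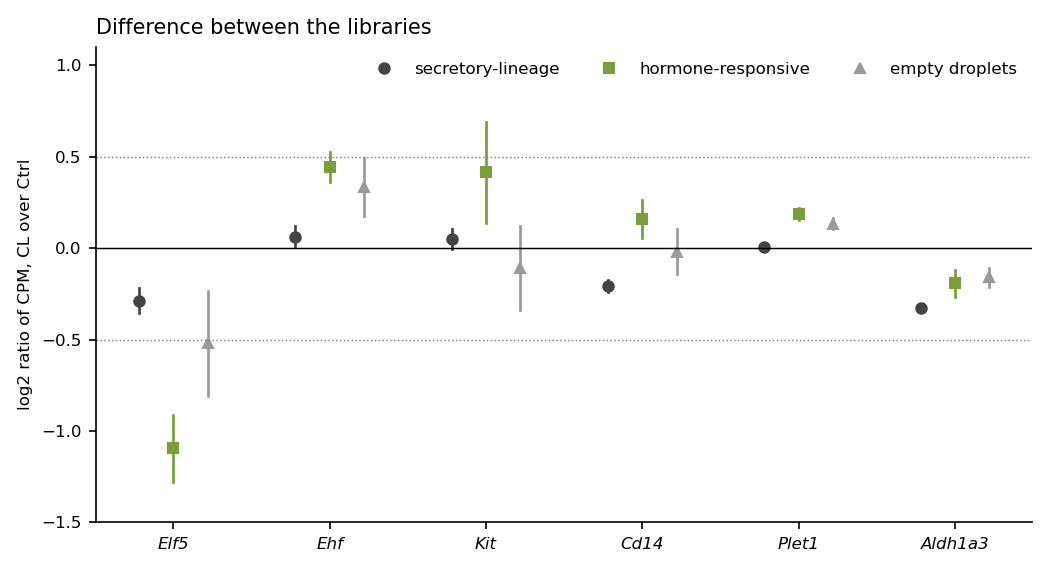
Log2 ratio of CPM, CL over Ctrl, for each gene in secretory-lineage cells (circles), hormone-responsive cells (squares) and droplets of 100 to 300 UMIs (triangles), with exact 95% intervals that cover counting error only; dotted lines mark 0.5 and -0.5. No member passed 0.5 in either direction in secretory-lineage cells, and Elf5 had -1.10 in hormone-responsive cells.

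The direction held across clusters for Aldh1a3 but not for the others. Aldh1a3 was lower in CL in 6 of 6 secretory-lineage clusters, with log2 ratios from -0.43 to -0.19, each with an interval below 0. Elf5 was lower in 5 of 6, the exception being the Lalba cluster at 0.13 [-0.10 to 0.36]. Cd14 was lower in 4 of 6, Kit in 3 of 6, Ehf in 2 of 6 and Plet1 in 1 of 6. Droplets moved too. The log2 ratio of CL over Ctrl in droplets was -0.52 [-0.81 to -0.23] for Elf5, -0.16 [-0.21 to -0.11] for Aldh1a3, -0.02 [-0.14 to 0.10] for Cd14 and 0.33 [0.18 to 0.49] for Ehf. The part of free RNA in the differences between libraries was not tested.

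The share of cells in each cluster also differed. Cluster 1 held 35.7% of secretory-lineage cells in Ctrl and 21.5% in CL, and the MHC class II cluster 0.639% and 18.7%. Without the MHC class II cluster, Aldh1a3 had -0.33, Elf5 -0.28 and Cd14 -0.21, and Kit had 0.15. With each cluster counted alike, Cd14 had -0.08. When the cluster with markers of both luminal classes was counted as secretory-lineage, Elf5 had -0.42, Aldh1a3 -0.44, Cd14 -0.34, Kit -0.07, Plet1 -0.11 and Ehf 0.01.

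In hormone-responsive cells 1 of 6 members was past 0.5, Elf5, which was lower in CL, but 5 of 6 were under 3 of 9 alternatives (at most 5% mitochondrial UMIs, Leiden resolution 0.5, and each cell named alone). There 4.08% of 13123 genes were higher by that size and 5.47% lower, and the median of the 6 was 0.17 against -0.03 over all genes compared. Elf5 counted 706 UMIs in Ctrl and 372 in CL, a log2 ratio of -1.10 [-1.28 to -0.91]. Ehf had 0.44 [0.36 to 0.53], Kit 0.41 [0.14 to 0.69], Plet1 0.19 [0.16 to 0.22], Cd14 0.16 [0.05 to 0.26] and Aldh1a3 -0.19 [-0.26 to -0.12]. These values depended on how cells were filtered and named. Over 9 alternatives Aldh1a3 ranged from -0.89 to 0.78, Kit from -0.09 to 0.95, Cd14 from -0.09 to 0.47 and Plet1 from 0.10 to 0.92, while Ehf stayed between 0.39 and 0.52. The 69 dividing cells of CL carried 19.8% of the Aldh1a3 UMIs of the class there, and the 96 of Ctrl 8.66%. Outside the dividing cluster Aldh1a3 stood at 68.8 CPM in Ctrl and 51.7 CPM in CL, a wider gap than over the whole class, though not one that every cluster shared, as given below.

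The clusters that made up the class also differed between the libraries. The cluster led by Gpx3 and Aoc1 held 837 cells in Ctrl and 50 in CL, and the cluster led by Fxyd2 and Crym 239 and 108. Together with their Elf5 levels of 21.2 CPM [19.0 to 23.6] and 42.6 CPM [37.2 to 48.4] in Ctrl, they carried 49.0% and 32.4% of the Elf5 UMIs of the class in that library, against 2.15% and 21.8% in CL. In the 2 larger clusters of CL, Elf5 was 7.92 CPM [6.67 to 9.34] and 4.12 CPM [3.38 to 4.97], beside 6.03 CPM [4.77 to 7.51] and 2.52 CPM [1.41 to 4.16] in Ctrl.

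Within a cluster Elf5 did not show the pooled difference, other than in the Gpx3 and Aoc1 cluster. The log2 ratio of CL over Ctrl was 0.39 [-0.01 to 0.81] in cluster 2, 0.71 [-0.08 to 1.59] in cluster 3 and 0.01 [-0.38 to 0.38] in the Fxyd2 and Crym cluster. In the Gpx3 and Aoc1 cluster it was -1.03 [-2.26 to -0.04], from 8 UMIs in CL. Leaving out the Gpx3 and Aoc1 cluster gave a pooled ratio of -0.80, and leaving out both clusters gave 0.04. With 1 library per group, a cluster almost wholly of 1 library may belong to that library.

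**Figure D5:**
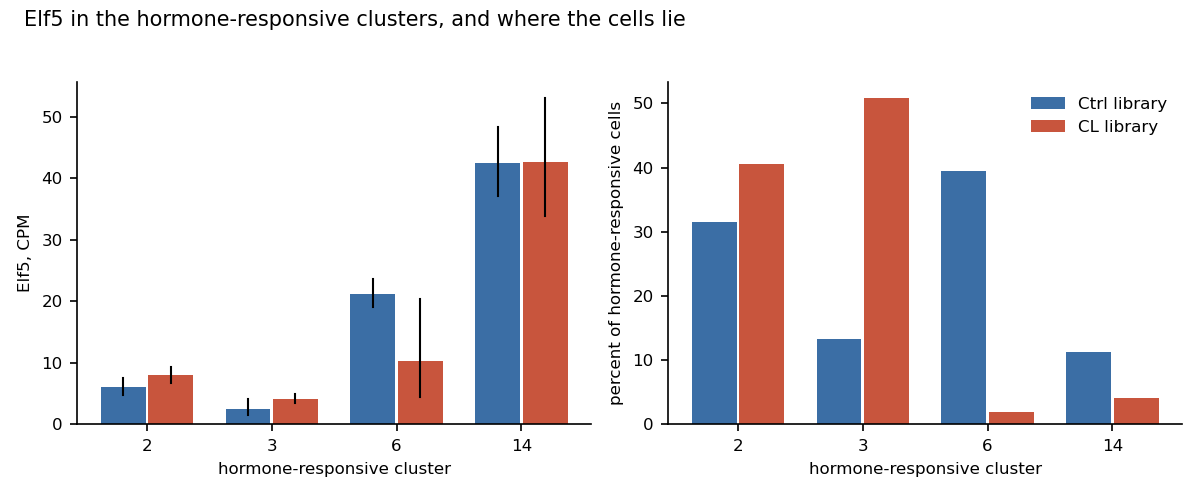
Left, CPM of Elf5 in the 4 hormone-responsive clusters with exact 95% Poisson intervals; right, percent of hormone-responsive cells in each cluster, Ctrl in blue and CL in red in both. Elf5 was highest in cluster 14 of both libraries, then in cluster 6, and these clusters held 11.3% and 39.4% of the cells in Ctrl and 4.12% and 1.91% in CL.

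Ehf was the only member higher in CL in all 4 hormone-responsive clusters, with log2 ratios from 0.24 to 0.57 and 3 of 4 intervals above 0. In droplets Ehf was also higher in CL, at 66.2 CPM against 52.5 CPM. Aldh1a3 in the Fxyd2 and Crym cluster stood at 176.9 CPM for Ctrl and 49.6 CPM for CL, a log2 ratio of -1.84 [-2.16 to -1.53], and it was lower in CL in the Gpx3 and Aoc1 cluster too, at -1.23 [-1.89 to -0.64]. The 2 larger clusters of CL did not follow, with 0.06 [-0.13 to 0.24] in cluster 2 and a higher level in CL in cluster 3, at 0.37 [0.19 to 0.55]. Cluster 3 held 50.8% of the hormone-responsive cells of CL and 57.0% of their Aldh1a3 UMIs.

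Genes whose level followed each member most closely over the 21 clusters of at least 50 cells were named by Pearson correlation of log2(CPM + 10). The clusters share libraries and depth, and the values are descriptions. The names depended on the clusters used. Of the 30 pairs of a member and a named gene, 14 stayed when only clusters of Ctrl were taken. Elf5 was followed by Plb1 (r = 0.97), Sec14l2, Aldoc, Lurap1l and F2rl1. Ehf was followed by Marveld2 (0.98), Ocln, Cldn7, Sowahb and Ckmt1, of which Marveld2, Ocln and Cldn7 encode tight junction proteins. Kit was followed by the mucin genes Muc1 (0.95) and Muc20, then Wfdc18, Gabrg3 and Chchd7. Aldh1a3 and Plet1 followed each other (0.98) and shared Atp6v1b1, a proton pump subunit, and Slc5a7, the choline transporter. Csn3 and Snorc completed the list of Aldh1a3, and Cidea and Wnt5b that of Plet1. Cd14 was followed by Gk (0.92), Sdcbp, Psmd11, Slc8b1 and Rab7b. Among the members, Cd14 had the lowest correlations with the others, from 0.43 to 0.60, while those of the other pairs were from 0.70 to 0.98.

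Families and pathways around the members were read from lists, counting genes at least 1 apart on the log2 scale between secretory-lineage and hormone-responsive cells. Of 20 other ETS genes, 17 could be compared, and 3 were higher and 3 lower in secretory-lineage cells of Ctrl, 1 and 4 in CL. Over all genes compared, 14.9% were higher and 23.4% lower by that size in Ctrl, and 14.1% and 22.9% in CL, against which the counts of these short lists can be read. Elf4 was the gene higher in both libraries, at 4.06 and 5.47 CPM with log2 ratios of 1.29 and 1.85. Spdef, an ETS factor of luminal cells, was lower, with log2 ratios of -2.79 and -2.20. The median of the list was 0.33 in Ctrl and 0.31 in CL. Between the libraries in secretory-lineage cells, where 3.04% of all genes were higher and 6.31% lower by 0.5, Spdef was higher in CL at 0.60 [0.09 to 1.13] and Etv1 lower at -0.86 [-1.07 to -0.66]. Spdef stood at 1.53 and 2.31 CPM there in Ctrl and CL, under the 8.35 and 7.39 CPM of droplets. Etv1 stood at 14.3 and 7.88 CPM, beside 12.6 and 12.4 CPM in droplets.

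Of 10 genes of the KIT axis, 8 could be compared in Ctrl, of which 2 were higher, and 7 in CL, of which 2 were higher. Kitl, the ligand, stood at 123.8 CPM in secretory-lineage and 68.7 CPM in hormone-responsive cells of Ctrl, but it was higher outside the luminal classes, with 394.6 CPM in basal-like cells and 315.8 CPM in fibroblast-like cells of the same library. In CL these classes held 412.5 and 292.4 CPM against 126.2 CPM in secretory-lineage cells. Gab2, an adaptor of receptor tyrosine kinases, was higher in both, with log2 ratios of 1.48 in Ctrl and 1.43 in CL. The other higher gene was Pdgfra in Ctrl, at 2.23 (too few UMIs to compare in CL), and the kinase gene Lyn in CL, at 1.003 against 0.99 in Ctrl. Between the libraries in secretory-lineage cells, 1 of 8 was past 0.5, Pdgfra, lower in CL at -1.27 [-2.02 to -0.56]. It counted 46 and 27 UMIs there, 1.49 and 0.618 CPM, under the 7.17 and 3.60 CPM of droplets.

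Of 15 retinoid genes, 8 could be compared in Ctrl and 9 in CL, with 2 higher in each and 3 and 4 lower. Crabp2, which carries retinoic acid to its receptors, stood at 158.7 and 130.1 CPM in secretory-lineage cells against 7.76 and 7.16 CPM in hormone-responsive cells. Dhrs3, which reduces retinaldehyde, was lower, with log2 ratios of -1.92 and -1.69. The other makers of retinoic acid, Aldh1a1 and Aldh1a2, were at most at 0.0649 CPM in secretory-lineage cells. Between the libraries in those cells, 1 of 8 was past 0.5, Cyp26b1, which degrades retinoic acid, at -0.71 [-1.53 to 0.10] from 30 and 26 UMIs.

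Of 11 genes of the CD14 and TLR4 receptor list, 10 could be compared and 4 were higher in each library. These were Lbp (4.65 and 4.29), which delivers lipopolysaccharide to CD14, Tlr2 (2.31 and 2.68), Tlr4 (1.31 and 1.41) and the adaptor Traf6 (1.292 and 1.202), all as log2 ratios in Ctrl and CL. Ly96, the partner of TLR4, had -0.39 and -0.58. Irak4 was the lower gene, at -1.37 and -1.16. Lbp was also the 1 gene of the 10 past 0.5 between the libraries in secretory-lineage cells, at 13.1 CPM in Ctrl and 8.29 CPM in CL, a log2 ratio of -0.66 [-0.87 to -0.45].

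The prolactin and STAT5 list, upstream of Elf5 in alveolar development, held no gene at least 1 higher on the log2 scale in secretory-lineage cells. Of its 7 genes, 5 in Ctrl and 4 in CL were lower by that size. The targets Cish and Socs2 were higher by less, with log2 ratios of 0.35 [0.18 to 0.52] and 0.78 [0.63 to 0.93] for Cish in Ctrl and CL, and 0.40 and 0.31 for Socs2. Socs3, another SOCS gene of the list, went the other way, with -2.56 in Ctrl and -2.51 in CL. Prlr, the prolactin receptor and also a naming marker of hormone-responsive cells, stood at 116.4 CPM in secretory-lineage and 3167 CPM in hormone-responsive cells of Ctrl. Stat5a had log2 ratios of -2.85 and -2.35. Between the libraries in secretory-lineage cells 0 of the 7 were past 0.5.

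Of 18 other genes linked to luminal progenitors, 9 were higher in each library, and 2 in Ctrl and 1 in CL lower. Sox10 stood at 64.5 and 67.3 CPM in secretory-lineage cells against 1.46 and 2.45 CPM in hormone-responsive cells. The tetraspanin Tspan8 had log2 ratios of 4.65 and 4.09, Hey1, a Notch target, 3.94 and 3.21, and the integrin subunit Itga2 2.77 and 2.38. Runx1 was the gene lower in both, at -1.17 and -1.57, and Gata3, a luminal regulator, had -1.48 and -0.83. Between the libraries in secretory-lineage cells, Hey1 was the 1 gene of the 18 past 0.5, at 44.9 CPM in Ctrl and 31.5 CPM in CL, a log2 ratio of -0.51 [-0.62 to -0.40].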

How the data were processed

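Single cell 3' libraries were made from sorted mammary cells and their counts deposited, 1 library per group. The authors deposited raw UMI counts, not normalized, in matrices that keep every barcode (32285 genes, 6794880 barcodes). The matrix header names Cell Ranger 4, the submitters' processing notes Cell Ranger 2.1.1 and build mm10, and these disagree. Of the gene identifiers, 32158 were found in GENCODE M21 on GRCm38, which gave positions.

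The deposited barcode lists (7217 in Ctrl, 10555 in CL) did not index the matrix columns, so as many barcodes, those with most UMIs, were taken (at least 615 and 648 UMIs). Cells with at least 500 genes and at most 15% mitochondrial UMIs were kept. Scrublet in scanpy 1.11.5 (expected rate 6%) marked 0 CL cells at its own threshold, so the Ctrl threshold was used for both libraries, marking 5.72% and 5.45%. Counts were normalised and clustered on 2000 variable genes without the members, 30 principal components, 15 neighbours and Leiden resolution 1. Clusters were named from marker lists by a score set after the data were seen: at least 3 markers at 2 times the level of reference clusters, found in 10% of cells, and no other class at 0.6 of the score. Dividing cells were named one by one.

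UMIs were summed per class and library. Genes with at least 50 UMIs over both sums were compared as ratios of CPM, with exact conditional binomial intervals. Shares were thinned to 2000 UMIs, with Clopper-Pearson intervals, and all intervals are at 95%. No replicate exists, so no p-value was computed. The sizes of 0.5 and 1 on the log2 scale only describe. Named were the members, the 5 genes most like each (at least 200 UMIs) and lists of related genes. Members and lists were chosen with earlier results of these data known. The ratio scripts were tested on simulated data. Alternatives covered filters, doublets, clustering, naming, thinning, pseudocount, droplet range and scaling (TMM of edgeR 4.0.16, or without the 50 most abundant genes), and others were added after seeing the data. Columns of per-sample values not used: 0. List genes are given as counts, with values for a few, and 1 further result is not reported here.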

Additional observations from a re-analysis of the deposited data

Results flagged for a closer look

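Cd14 differed in direction between the luminal classes: the log2 ratio of CL over Ctrl was -0.21 in secretory-lineage luminal-like cells (438.3 CPM in Ctrl, 380.0 CPM in CL) and 0.16 in hormone-responsive luminal-like cells (29.8 and 33.2 CPM). With 1 library per group, the single pair of libraries moved one way in the first class and the other way in the second, and the difference between the classes was not tested. In hormone-responsive cells the ratio was -0.01 with a minimum of 1000 genes, -0.03 with doublets kept and -0.09 with each cluster counted alike, and up to 0.47 with at most 5% mitochondrial UMIs. Of the 4 hormone-responsive clusters, 2 were higher and 2 lower in CL, with 0 intervals above 0 and 1 below. Of the 6 secretory-lineage clusters, 2 were higher and 4 lower, with 0 intervals above 0 and 4 below. Droplets had -0.02 [-0.14 to 0.10].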

How the results depend on the processing

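Alternatives planned at the outset and others chosen after seeing the data were run one at a time. In secretory-lineage cells the number of members at least 0.5 apart between libraries stayed 0 under 16 alternatives. Of the 96 single values behind it, 17 fell outside the interval given in the report. Elf5, Aldh1a3 and Cd14 stayed lower in CL in all 16, whereas Kit (-0.07 to 0.15) and Plet1 (-0.11 to 0.08) had either sign. Elf5 in hormone-responsive cells, -1.10 as reported, was 0.037 without the Gpx3 and Aoc1 and the Fxyd2 and Crym clusters. The number of members past 0.5 in those cells, 1 as reported, was 5 with at most 5% mitochondrial UMIs, 5 at Leiden resolution 0.5 and 5 with each cell named alone. The cause was not tested. All 6 members stayed at least 1 higher in secretory-lineage than in hormone-responsive cells in Ctrl under 15 alternatives, but the ratios fell with a minimum of 200 genes, Aldh1a3 from 5.29 to 3.26 in Ctrl and from 5.15 to 2.74 in CL. The Elf5 ratio, larger in CL as reported and under the other alternatives, was larger in Ctrl (4.06 against 3.74) without the Gpx3 and Aoc1 and the Fxyd2 and Crym clusters. In CL the number of members at least 1 higher was 5 with a minimum of 200 genes and with at most 5% mitochondrial UMIs, where Ehf had 0.97. The percent of secretory-lineage cells with 3 or more members was 39.8, 91.0 and 95.1 in Ctrl at 1000 UMIs, 5000 UMIs and without thinning, and 36.6, 90.5 and 93.4 in CL. This follows the depth by construction. Of the 30 pairs of a member and a gene named as most like it, 21 were shared with a pseudocount of 1. With clusters of Ctrl alone 14 were shared, and with clusters of CL alone 16. Depth limits the rare classes most, where Elf5 rested on 10 UMIs or fewer. No paired analysis was possible because each group holds 1 library.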
